A study of Mus musculus with 2 samples.

Results

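The miR-26 family of the mouse consists of 3 hairpin genes, Mir26a-1, Mir26a-2 and Mir26b, out of the 2201 miRNA hairpin genes of GENCODE M21. It was described here in small RNA from fetal testes of WT and Hsp90α KO mice. A read was counted for a member when it was at least 16 nt long and lay exactly, on the sense strand, inside that member's hairpin. The rule used no read count, and 38 distinct sequences met it. None of the 38 occurred in a transcript of any other gene. All 3 genes are covered below, although nearly every read of Mir26a-1 and Mir26a-2 belonged equally to both.

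Each genotype was represented by 1 library made from 20 pooled whole testes of C57BL/6 fetuses at embryonic day 16.5. The KO animals lack Hsp90α (Hsp90aa1), a cytosolic chaperone, and no other allele or treatment is given for either group. With 1 library per genotype, every interval below covers the counting of reads only, and no difference has a replicate check. Reads are amplified copies without molecular identifiers, so the intervals also leave out unequal amplification. In whole testes, fewer cells of a type and less RNA per cell cannot be told apart.

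A microRNA is cut from a hairpin precursor as a short duplex, and one strand is kept by an Argonaute protein while the other is mostly degraded. The arm nearer to the start of the hairpin is called 5p and the other 3p. Bases 2 to 8 of the mature strand, the seed, do most of the pairing with target mRNAs. The hairpins of miR-26 lie in introns of genes for small phosphatases that act on the C-terminal domain of RNA polymerase II, and miR-26 is known for repressing Ezh2, the methyltransferase of histone H3 lysine 27. In other cells its 3′ end is a known substrate of the terminal uridylyltransferase TUT4.

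The mature sequences below, from RefSeq on GRCm38.p6, are shown because they decide which gene a read can be assigned to. Seeds are in capitals.
mmu-miR-26a-5p, at chr9:119031811-119031832 (Mir26a-1) and chr10:126995543-126995564 (Mir26a-2), plus strand: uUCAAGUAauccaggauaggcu
mmu-miR-26b-5p, at chr1:74394324-74394344, plus strand: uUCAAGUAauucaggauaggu
mmu-miR-26a-1-3p, at chr9:119031850-119031871, plus strand: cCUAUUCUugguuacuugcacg
mmu-miR-26a-2-3p, at chr10:126995581-126995602, plus strand: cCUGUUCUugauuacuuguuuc
mmu-miR-26b-3p, at chr1:74394360-74394381, plus strand: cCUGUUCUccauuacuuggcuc

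Mir26a-1 and Mir26a-2 thus encode the same 5p strand. From this strand miR-26b-5p differs by C11U and C21U, counted from 1 at the 5′ end with the base of miR-26a first, and both differences lie outside the seed. Of the 1679 mature miRNAs in the RefSeq table, miR-26a-5p and miR-26b-5p were the 2 with the seed UCAAGUA. The 3p strands are less alike. Those of Mir26a-1 and Mir26a-2 share 16 of 22 positions and those of Mir26a-2 and Mir26b share 18 of 22. The 3p seed CUGUUCU, common to Mir26a-2 and Mir26b, occurred in 4 mature miRNAs of the table, the other two being miR-6932-3p and miR-7039-3p, while Mir26a-1 has a different 3p seed.

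The precursors are shown over 30 bases around the 5p strand, in capitals, because the base that follows it decides whether the last base of a read is templated.
Mir26a-1, chr9:119031807-119031836, plus strand: cucgUUCAAGUAAUCCAGGAUAGGCUgugc
Mir26a-2, chr10:126995539-126995568, plus strand: uggaUUCAAGUAAUCCAGGAUAGGCUgugu
Mir26b, chr1:74394320-74394349, plus strand: ccagUUCAAGUAAUUCAGGAUAGGUugugg

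Mir26a-1 (ENSMUSG00000065513.1) is a 90-nt hairpin on chromosome 9 at 119031796 to 119031885 of GRCm38. It lies on the strand of Ctdspl (118926453 to 119043998) and was intronic in all 3 Ctdspl transcripts that span it. Mir26a-2 (ENSMUSG00000065430.1), 84 nt long at 126995530 to 126995613 of chromosome 10, was intronic in the 1 spanning transcript of Ctdsp2 (126978717 to 126999975). Mir26b (ENSMUSG00000065468.1), 85 nt long at 74394310 to 74394394 of chromosome 1, was intronic in both spanning transcripts of Ctdsp1 (74391509 to 74397285). All 3 hairpins therefore have the same arrangement, sense to the host and outside its exons.

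The WT library held 6409305 reads and the KO library 5589326, of 11 to 48 nt. Reads matching any hairpin numbered 2523084 in WT and 2561491 in KO, which was 39.4% and 45.8% of each library. Levels are given as reads per 1000000 hairpin-matching reads (RPM), on which scale 3 reads correspond to 1.19 in WT and 1.17 in KO. Mir10b alone took 55.9% of the hairpin reads in WT and 55.2% in KO. Exonic fragments of Hsp90aa1 numbered 2 in WT and 10 in KO, but the position of the deletion is not given in the sources used here, so these reads do not check the labels.

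The family was abundant and, in RPM, nearly equal in both libraries. It held 44077 reads in WT and 45453 in KO, or 17469 and 17745 RPM. Its KO/WT ratio was 1.02 (95% interval 1.003 to 1.03), but 1.18 (1.17 to 1.20) when all reads of each library were the normalizer. The family was 1.75% of all hairpin reads in WT and 1.77% in KO.

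Mir26a made up most of the family, with 40083 reads in WT and 41687 in KO. Its level was 15886 RPM in WT and 16274 in KO, a ratio of 1.02 (1.01 to 1.04). Without Mir10b in the normalizing total the ratio was 1.01 (0.996 to 1.02), so the small excess in KO was then within counting error. With all reads of each library as the normalizer the ratio was 1.19 (1.18 to 1.21), so the size of the excess depended on the scale.

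Mir26b was the minor member, with 3994 reads in WT and 3766 in KO. Its level was 1583 RPM in WT and 1470 in KO, a ratio of 0.929 (0.888 to 0.971), but when all reads of each library were the normalizer it was 1.08 (1.03 to 1.13), so that its direction depended on the scale. That normalizer moved the median of all hairpins by 0.219 on the log2 scale.

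The balance between the members does not depend on the normalizer. Mir26b was 9.06% of family reads in WT (8.79 to 9.33) and 8.29% in KO (8.03 to 8.54). Put the other way, Mir26a had 10.04 reads for each read of Mir26b in WT and 11.1 in KO. The odds of a family read being Mir26b were 0.907 times as high in KO as in WT (exact conditional interval 0.865 to 0.9501), a shift larger than the counting error of these libraries.

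Nearly all Mir26a reads were silent on their gene of origin. In WT 40062 reads, and in KO 41663, fitted both Mir26a hairpins, which was 99.9% of Mir26a reads in each. These reads were all from the 5p side. Reads particular to Mir26a-1 numbered 1 in WT and 4 in KO, and those particular to Mir26a-2 numbered 20 in each library. The split of miR-26a-5p between Ctdspl and Ctdsp2 introns therefore could not be measured.

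**Figure D1:**
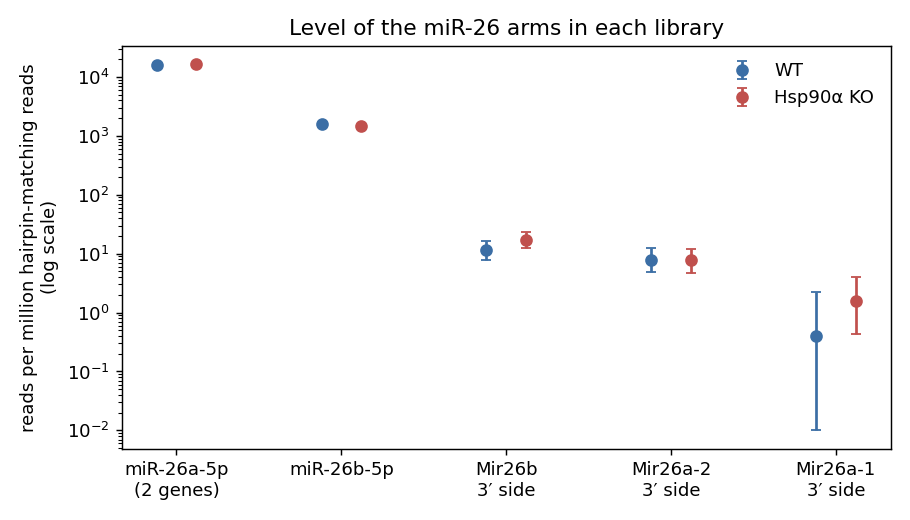
Levels in RPM (log scale) for each side of the miR-26 hairpins in the WT and Hsp90α KO libraries; points are 1 library each and bars are 95% counting intervals. The 5p strands stand at 15878 and 16265 (miR-26a) and at 1571 and 1453 (miR-26b), and the 3′ sides at 17.2 or less.

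The 5p strand dominated in each gene. miR-26a-5p was read 40062 times in WT and 41663 times in KO, a ratio of 1.02 (1.01 to 1.04). miR-26b-5p was read 3965 times in WT and 3722 times in KO, a ratio of 0.925 (0.884 to 0.967). The 3p strand of Mir26b was the most read of the 3p strands, with 29 reads in WT and 44 in KO (11.5 and 17.2 RPM). Its ratio was 1.49 (0.914 to 2.48), an interval that includes 1.

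The 3′ side of Mir26a-2 had 20 reads in each library. Of these, 13 in WT and 11 in KO were miR-26a-2-3p itself (ratio 0.833, interval 0.338 to 2.02). The other 7 in WT and 9 in KO were a single sequence of 16 nt from the loop side of the hairpin, shown because it is no mature strand.
Mir26a-2 loop read: gtgtccgtccatgagg
The 3p strand of Mir26a-1 was read once in WT and 4 times in KO, and at that depth its ratio of 3.94 (0.390 to 194) shows no direction. The 3p strands that could tell the Mir26a genes apart were thus too few to show a difference between the libraries.

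Mir26b kept a larger part of its 3p strand than Mir26a did. The 3′ side was 0.726% of Mir26b reads in WT (0.487 to 1.04) and 1.17% in KO (0.850 to 1.57). For Mir26a, with both genes and the loop read included, it was 0.0524% in WT (0.0324 to 0.0801) and 0.0576% in KO (0.0369 to 0.0857). The odds of 3p over 5p were 14.0 times as high for Mir26b as for Mir26a in WT (7.68 to 25.8) and 20.5 times as high in KO (12.2 to 35.3). Between the libraries the same odds changed by a factor of 1.62 for Mir26b (0.986 to 2.68) and 1.10 for Mir26a (0.586 to 2.08), and both intervals include 1.

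The minor arms were then ranked beside those of other hairpins. Among 132 hairpins with at least 1000 reads in each library, ranked by the share of reads from the minor arm, Mir26b ranked 71 in WT and 61 in KO, near the medians of 0.917% and 0.880%. Mir26a-2 ranked 110 and 113, and Mir26a-1 ranked 125 and 120, which put both toward the lower end. The 5p reads that both Mir26a genes share were counted in full for each of them in these shares.

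The ratios of the members were then set beside those of other hairpins. Of the 458 hairpin genes whose reads from WT and KO came to 100 or more, 183 (40%) had a ratio above 1.5 or below 1/1.5, and none of the 3 members did. An interval wholly below 1 was found for 52.4% of them, Mir26b included, and one wholly above 1 for 9.39%, Mir26a-1 and Mir26a-2 included. The share past 1.5-fold rested largely on repeated gene copies. Of the 192 hairpins whose names do not begin with Mir, 176 were past 1.5-fold, with a median ratio of 0.341. Of the 266 named Mir, 7 were, with a median of 0.990. When reads lying in hairpins of more than 1 gene were left out, 4 of 205 hairpins (1.95%) were past 1.5-fold.

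A stricter comparison used 83 arms with at least 1000 reads in each library, in which genes with the same most frequent sequence were merged. Of these, 1 (1.2%) was past 1.5-fold, 27.7% had an interval above 1 and 38.6% had one below 1. The median ratio was 0.980 (quartiles 0.925 and 1.06). miR-26a-5p ranked 31 and miR-26b-5p 63 from the highest ratio, so that miR-26a-5p lay inside the middle of the distribution and miR-26b-5p at its lower quartile. An interval that leaves out 1 was common among arms this deeply read and does not set the members apart. By level, miR-26a-5p ranked 9 in both libraries, and miR-26b-5p ranked 44 in WT and 46 in KO.

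**Figure D2:**
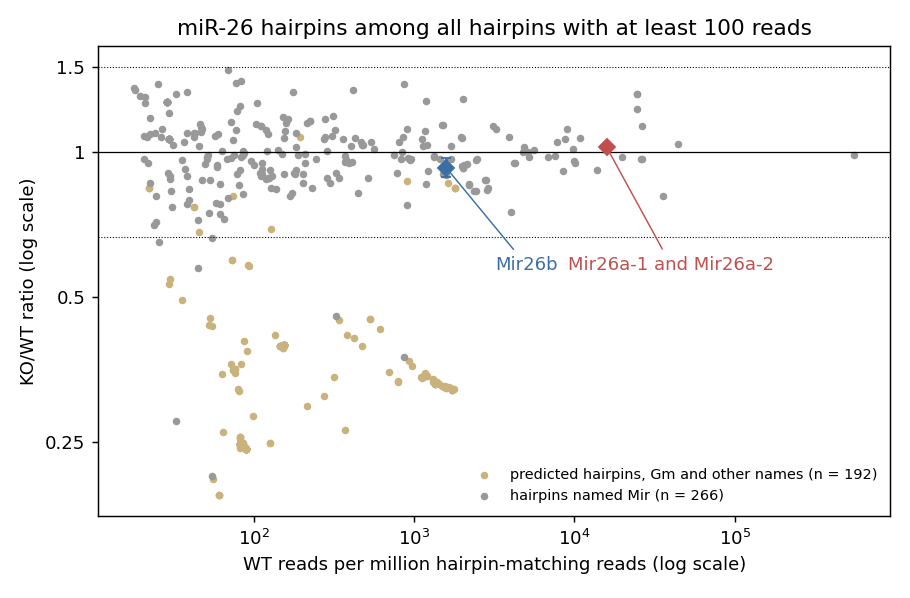
KO/WT ratio against WT level in RPM (both log scales) for the 458 hairpins with at least 100 reads; each point is 1 hairpin, the diamonds are the miR-26 members with 95% counting intervals (those of Mir26a-1 and Mir26a-2 overlap), and dotted lines mark 1.5-fold. The members lie within the band of hairpins named Mir, and the hairpins below 0.5 are mostly those with other names.

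The hairpins whose levels in the 2 libraries lay nearest to Mir26a were Mir148a, Mir22, Mir191, Mir181a-1 and Mir351, at distances of 0.392 to 0.993 on the log2 scale. Their ratios ran from 0.919 for Mir22 to 1.07 for Mir191. Nearest to Mir26b were Mir6240, Gm24187, Mirlet7i, Mir335 and Gm23935, at 0.0471 to 0.195, with ratios from 0.842 for Gm23935 to 0.966 for Mir335. Gm24245 and Gm24270 had the same counts as Gm23935, so the last place was tied. Gm24187 has the same most frequent 3p sequence as these, so they are not separate comparisons. Likeness over 2 libraries describes level only.

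The host genes gave few fragments. Exonic reads found in that gene alone numbered 14 in WT and 10 in KO for Ctdsp1, the host of Mir26b (ratio 0.704, 0.280 to 1.70). They numbered 68 in WT and 42 in KO for Ctdsp2, the host of Mir26a-2 (0.608, 0.404 to 0.907), and 3 in WT and 1 in KO for Ctdspl, the host of Mir26a-1. Such fragments in a small RNA library are not a measure of mRNA level, and no comparison with the hairpins was drawn from them.

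Hairpins that mark cell types moved between the libraries to different extents. The miR-290 and miR-302 clusters, markers of germ cells and pluripotent cells, summed to 803 RPM in WT and 1040 in KO (ratio 1.30), each read counted once for a list. Of their 14 hairpins, 5 had at least 100 reads, with ratios of 1.11 to 1.48, and Mir290b, Mir292b, Mir302c and Mir367 were at 0 in both libraries. Markers of supporting cells (Mir202 and Mir140) summed to 2804 and 2982 (1.06). The 7 hairpins of interstitial and mesenchymal cells, of which Mir145b was at 0, summed to 61573 and 62784 (1.02), but the 6 with at least 100 reads went different ways, from 0.811 for Mir143 to 1.32 for Mir199a-1. The arms of Mir199a-1 and Mir199a-2 differed in ratio, with 1.47 for the 5p arm and 0.975 for the 3p arm that they share with Mir199b. The endothelial Mir126a stood at 5133 and 5147 (1.003), and the erythroid Mir451a and Mir144 summed to 274 and 219 (0.7997). Markers of muscle (5 hairpins, Mir206 at 0) summed to 19.8 in WT and 17.2 in KO, and those of nerve to 16.6 and 14.4. The liver marker Mir122 stood at 6.34 in WT and 0.390 in KO, the latter below the level of 3 reads. The part of these shifts in the miR-26 values was not tested.

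The reads of both members began almost always at the same base. In miR-26a-5p 99.7% of reads in WT and 99.6% in KO had the main start, and in miR-26b-5p 99.9% in each. The most read sequences are shown in DNA letters as deposited, with the seed in capitals, because the members differ at their ends.
miR-26a-5p, 22 nt, 36629 reads in WT and 38155 in KO: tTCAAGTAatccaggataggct
miR-26b-5p, 22 nt, 3083 reads in WT and 2916 in KO: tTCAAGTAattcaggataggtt
miR-26b-5p, 20 nt, 385 reads in WT and 369 in KO: tTCAAGTAattcaggatagg

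The most frequent read of miR-26b-5p was 1 base longer than its 21-nt RefSeq entry. The extra base is U, which is also the next base of the Mir26b precursor, so a templated and an added base cannot be told apart there. In Mir26a the base after position 22 is G.

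The exact reads of miR-26a-5p were of very even length. Lengths here and for miR-26b-5p leave out the tailed reads, which are counted separately below. Reads of 22 nt were 91.4% of its reads in WT (91.2 to 91.7) and 91.6% in KO (91.3 to 91.8), reads of 21 nt were 6.96% and 6.93%, and reads of 20 nt were 0.694% and 0.566%. The share at the most frequent length ranked 7 among the 83 arms in WT and 6 in KO, where the median arm had 67.9% and 68.0%.

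miR-26b-5p was more spread toward short reads. Reads of 22 nt were 77.8% of its reads in WT (76.4 to 79.0) and 78.3% in KO (77.0 to 79.7), those of 21 nt were 11.5% and 10.9%, and those of 20 nt were 9.71% and 9.97%. The odds of a 20-nt read were 15.4 times those of miR-26a-5p in WT (13.1 to 18.1) and 19.4 times in KO (16.4 to 23.1). For each 21-nt read there were 0.846 reads of 20 nt in WT and 0.913 in KO for miR-26b-5p, against 0.0949 and 0.0775 for miR-26a-5p. The difference in length between the members was present in both libraries and was far larger than the differences between the libraries in the same shares.

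**Figure D3:**
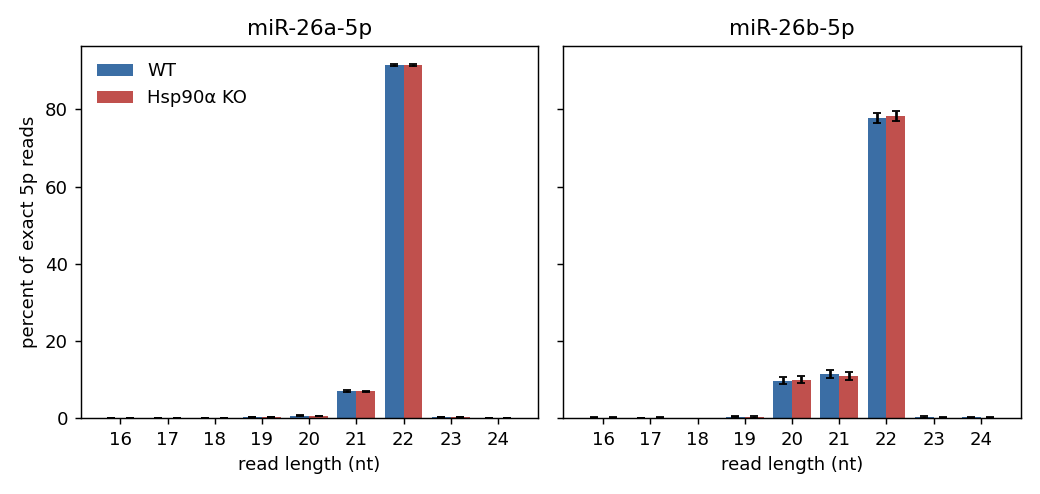
Percent of exact 5p reads at each length from 16 to 24 nt for miR-26a-5p and miR-26b-5p in the WT and Hsp90α KO libraries, with 95% counting intervals. Both peak at 22 nt in both libraries, and reads of 20 nt are near 10% for miR-26b-5p and under 1% for miR-26a-5p.

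By isomiR, that is by exact start and end, the 22-nt form of miR-26a-5p had a ratio of 1.03 (1.01 to 1.04) and the 21-nt form 1.005 (0.953 to 1.06), while the 20-nt form, with 258 reads in WT and 215 in KO, had 0.821 (0.682 to 0.988). For miR-26b-5p the forms of 22, 21 and 20 nt had ratios of 0.932 (0.885 to 0.980), 0.875 (0.763 to 1.002) and 0.944 (0.816 to 1.09). No form of miR-26b-5p stood apart from the others beyond its interval.

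A rare form of miR-26a-5p lacks the first base and so has a seed moved by 1 base, which is why it is shown, with the new seed in capitals.
miR-26a-5p without its first base, 21 nt: tCAAGTAAtccaggataggct
It was read 69 times in WT and 113 times in KO, a ratio of 1.61 (1.19 to 2.21). All reads of miR-26a-5p from this start numbered 79 in WT and 121 in KO, or 0.197% and 0.290% of its reads, and their odds were 1.47 times as high in KO (1.10 to 1.98). For any start other than the main one the odds ratio was 1.29 (1.001 to 1.66), which ranked 11 of 82 arms with a median of 1.01. Of the 83 arms 8.43% had an interval above 1 for this odds ratio, the lower limit of miR-26a-5p being just above 1, and 4.82% had one below 1. miR-26b-5p had 3 reads with another start in WT and 2 in KO, too few to compare.

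Reads with bases that the hairpin does not hold were counted separately, as a templated part of at least 18 nt followed by 1 to 3 untemplated bases. They fall outside the rule that defined the members' reads. The most frequent is shown with the added base in capitals.
miR-26a-5p with 1 added base, 23 nt, 2675 reads in WT and 2529 in KO: ttcaagtaatccaggataggctT

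Uridine was the most frequent addition to miR-26a-5p. Tails of U alone were on 3044 of 45005 exact and tailed reads in WT, or 6.76% (6.53 to 6.9996), and on 2903 of 46356 in KO, or 6.26% (6.04 to 6.49). The odds were 0.921 times as high in KO (0.873 to 0.971). Tails of A alone were on 2.06% in WT and 1.88% in KO, tails with both A and U on 1.36% and 1.22%, and tails with C or G on 0.951% and 0.930%. Together 11.1% of miR-26a-5p reads in WT and 10.3% in KO were tailed, an odds ratio of 0.916 (0.878 to 0.955).

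Among the tails counted in this way, miR-26b-5p carried adenosine about as often as uridine. In Mir26b the base after 20 nt and after 21 nt is U, so a U added to those forms counts as templated and is missed. In Mir26a the base after 20 nt is C and after 21 nt U, so the U shares of the members are not limited alike. Tails of U alone were on 284 of 4569 reads in WT, or 6.22% (5.53 to 6.96), and on 215 of 4242 in KO, or 5.07% (4.43 to 5.77), an odds ratio of 0.806 (0.668 to 0.970). Tails of A alone were on 5.89% in WT and 5.85% in KO (odds ratio 0.993, 0.827 to 1.19). Tails with both A and U were on 14 reads in WT and 28 in KO (2.16, 1.10 to 4.45). These are few reads, and this odds ratio was not set beside those of other arms. In all 13.3% of reads in WT and 12.5% in KO were tailed (0.928, 0.818 to 1.05).

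Counted on the 22-nt form alone, 1 added U was found on 7.30 reads per 100 untailed reads of miR-26a-5p in WT and 6.63 in KO, and on 8.63 and 6.86 of miR-26b-5p. One added A was found on 1.62 and 1.51 per 100 for miR-26a-5p and on 6.94 and 6.93 for miR-26b-5p. The members were thus close in added U and far apart in added A, in both libraries.

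Both U-tail odds ratios were below 1, and this was set beside the 77 arms that had tails of U alone in both libraries. Arms without such tails in 1 of the libraries were left out of this ranking. Of these, 9.09% had an interval below 1, both members included, and 5.19% had one above 1. The median odds ratio was 0.996 (quartiles 0.887 and 1.08). miR-26a-5p ranked 51 and miR-26b-5p 69 of 77 from the highest. In level of U tails miR-26a-5p ranked 25 in WT and 26 in KO among the 83 arms, and miR-26b-5p ranked 27 and 32, above the medians of 3.14% and 3.12%. In A tails miR-26b-5p ranked 22 and 23, and miR-26a-5p, at 43 and 44, was near the medians of 2.06% and 1.94%.

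**Figure D4:**
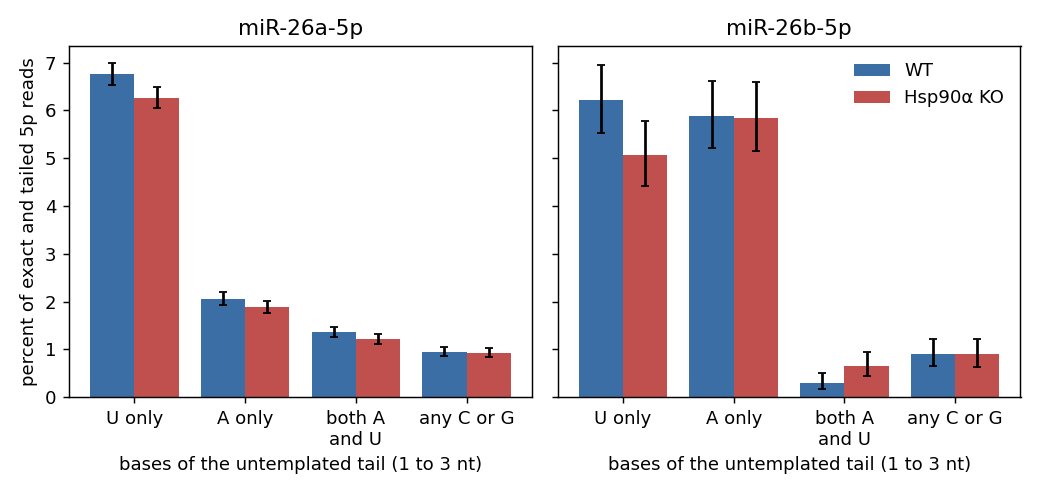
Percent of exact and tailed 5p reads with an untemplated tail of 1 to 3 nt, by the bases of the tail, for miR-26a-5p and miR-26b-5p in the WT and Hsp90α KO libraries, with 95% counting intervals. Tails of U alone are the most frequent for miR-26a-5p, whereas for miR-26b-5p tails of A alone reach 5.89% and 5.85%.

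Single-base changes in the 22-nt read were compared last, since a read with one is not an exact match. A read changed at its last base also meets the definition of a tailed read given above, so the values at position 22 overlap with the tails. For miR-26a-5p they were rare at most positions. The last base, position 22, was changed in 0.977 reads per 100 exact reads in WT and 0.841 in KO. At position 18 the libraries differed: changes there numbered 7 in WT and 152 in KO, of which A18C made up 3 in WT and 148 in KO. Position 18 of miR-26b-5p, also A, had the same change in 0 reads in WT and 11 in KO.

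The change at position 18 was not particular to miR-26. In 11 other arms with A at position 18, A-to-C reads numbered 7 in WT and 193 in KO, or 0.0151 and 0.441 per 100 exact reads, and were more frequent in KO in 10 of the 11. At position 6, where miR-26 has G, 23 other arms with A had 0.0148 such reads per 100 in WT and 0.186 in KO. These reads were not in the exact counts above. With up to 1 mismatch allowed, the ratio was 1.02 (1.004 to 1.03) for Mir26a and 0.920 (0.882 to 0.959) for Mir26b.

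**Figure D5:**
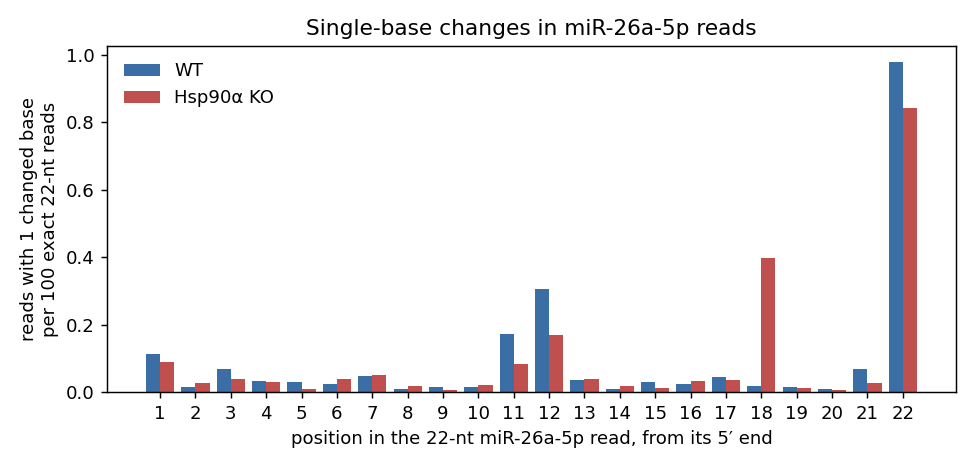
Reads of 22 nt with 1 changed base, per 100 exact 22-nt reads of miR-26a-5p, by position from the 5′ end in the WT and Hsp90α KO libraries (1 library each). Position 22, where a changed read also counts as tailed, is highest in both, at 0.977 and 0.841. Position 18 stands out in KO, at 0.398 against 0.0191 in WT.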

How the data were processed

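Small RNA from E16.5 testes was prepared with the TruSeq Small RNA kit and read in single-end runs of 50 bases on a MiSeq. The authors clipped the adaptor, kept reads of more than 10 bases and deposited, for each library, raw read counts of each distinct sequence; the clipping tool is not given in the sources used here. The submitters' processing notes name mm9, but the deposited counts carry no coordinates, and GRCm38 was used here.

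An exact match of 16 nt or more was required to one of the 2202 miRNA hairpin transcripts of GENCODE M21, and a read was counted for each hairpin that holds it. Counts were scaled to all reads matching these hairpins, predicted ones included; the study scaled to reads mapped to miRBase with SeqMap, which was not used here. Arms were set by the midpoint of the read. KO/WT ratios and shares have 95% Clopper-Pearson intervals, and odds ratios have exact conditional intervals; all compare libraries, not genotypes. Mature sequences were matched in RefSeq for all 3 genes.

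The members and lists were chosen with earlier results of these data known. Named genes were the members, their hosts, seed relatives, the top hairpin and the 5 hairpins nearest in level to each member. In counts simulated for 458 hairpins with Poisson error only, the ratio interval covered the true value in 95.2% of cases. The interval assumes that same error, so this checks the calculation and not the spread between libraries. Alternatives covered normalizer, length, mismatches, distinct sequences, read minimum and tails. Python 3.11.15, numpy 2.4.6, scipy 1.17.1 and matplotlib 3.10.9 were used.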

Additional observations from a re-analysis of the deposited data

How the results depend on the processing

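With 1 library per genotype no library could be left out. No paired analysis was possible because each genotype has 1 library. Of 94 alternatives over 24 results, 70 left the result on the same side of 1, or within its interval or 1.5 times its count. Normalized to all reads, the Mir26b ratio turned to 1.08, and the ratio rose to 1.18 for the family and 1.19 for Mir26a. Without Mir10b in the total the ratio was 1.001 for the family and 1.01 for Mir26a, and with 1 mismatch allowed 1.01 for the family, each then with an interval that includes 1. Allowing 1 mismatch also turned the 3′ side of Mir26a-2 to 1.03. Counting each distinct sequence once left few counts by construction: the ratios were 1.18 (family), 1.29 (Mir26a), 0.999 (Mir26b), 0.776 (Mir26b over Mir26a), 1.18 (miR-26a-5p), 1.06 (miR-26b-5p), 1.18 (3′ side of Mir26a-2) and 0.787 (3′ side of Mir26b), with intervals that all include 1, and the 3p shares were 14.3% and 21.7% for Mir26a and 23.1% and 18.2% for Mir26b (WT and KO). The 3p share of Mir26a in KO was 0.0337% from 18 nt and 0.0338% at 20 to 23 nt, where the 16-nt loop read is left out. Tails of 1 base lowered the U share of miR-26a-5p to 6.19% in WT and 5.66% in KO. Hairpins past 1.5-fold numbered 55 with at least 1000 reads, 4 with reads of 1 gene only and 1 among merged arms; the last, and 3p reads set by the RefSeq start, were added after seeing the data. Depth limits the 3p strands of Mir26a, with 24 reads or fewer.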
